A study of Mus musculus with 4 samples.

Results

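The collagen chain genes are the genes that encode the alpha chains of the collagens. They were taken by symbol, as every gene of the count tables named Col, a number, the letter a and a second number, which gave 44 of the 23420 gene symbols. By the type of collagen they build, 11 were placed with the fibrillar chains, 8 with the chains of basement membranes (types IV, XV and XVIII) and 25 with the other types. The study asked what loss of *Patz1*, a gene for a zinc finger DNA-binding protein, changes in mouse motor neurons (MNs). RNA-seq was done on MN cultures of cervical identity, made from the E14 line of mouse embryonic stem cells (mESCs), with 2 libraries from wild type (WT) cells and 2 from *Patz1* -/- (KO) cells. Both groups were differentiated as embryoid bodies and patterned in the same way, with 1 µM all-trans retinoic acid and 0.5 µM smoothened agonist added on day 2. The KO lines were single clones raised from E14 cells by genome editing, the labels do not say which clone gave which library, and replicates were separate differentiations per the study's methods, so a difference between genotypes and one between cell lines cannot be told apart.

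Each collagen is a trimer of alpha chains wound into a triple helix. Fibrillar collagens line up into the cables of connective tissue, type IV collagen is woven into the sheets of basement membrane that lie under epithelia and around vessels, and other types sit on fibrils, span the cell membrane or form fine filaments and lattices. In the nervous system collagens are made mainly by meninges, vessels and the cells that wrap nerves, while neurons make a few transmembrane and other nonfibrillar chains.

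The WT libraries held 14769104 and 15728158 counts and the *Patz1* KO libraries 23881522 and 17402342, so levels are given as counts or as CPM, which are counts scaled to the library size, with TMM factors. *Patz1* itself had 1363 and 1499 counts in the WT libraries against 1154 and 714 in *Patz1* KO, with a log2 fold change of -1.04 ± 0.10 (SE) (edgeR quasi-likelihood test with adjustment by Benjamini-Hochberg over 14394 genes, adjusted p = 9.93e-08), and reads of the edited gene thus remained. Of 8 MN genes, 7 were called higher in *Patz1* KO and none lower, and all 8 passed the filter in the cultures. Across all genes 6822 of 14394 were called at an adjusted p below 0.05, 3370 lower and 3452 higher. A collagen count is read below against these large shares.

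Of the 44 collagen chain genes, 35 had at least 10 counts in at least 2 libraries and were tested. Among the chains that passed the test, more were lower than higher in *Patz1* KO cultures, and the largest falls were those of *Col3a1*, *Col4a1*, *Col8a2* and *Col4a2*. In total 23 of the 35 were called (65.7%, against 47.4% of all genes tested), with 17 lower (against 23.4%) and 6 higher (against 24.0%). The 2 libraries of each group did not overlap in CPM for 32 of the 35, against 73.9% of all genes tested. The median log2 fold change of the 35, *Patz1* KO over WT, was -0.69, while that of all genes tested was -0.0014. The median size of the change in either direction was 1.11 on the log2 scale, compared with 0.34 over all genes. A change of at least 1 on the log2 scale was called for 19 chains, 13 lower and 6 higher, and for 12.8% of all genes tested. Of the 35 chains, 6 (*Col4a4*, *Col6a3*, *Col7a1*, *Col16a1*, *Col17a1* and *Col19a1*) did not reach 10 counts in every library of both groups, and the counts over the 35 describe only the chains that passed the filter. *Col6a3* and *Col16a1*, both called lower, reached 10 counts only in the WT libraries. With at least 10 counts asked of every library, 29 chains were tested, with 15 lower and 6 higher. DESeq2's Wald test called 18 of the 23, leaving out *Col14a1*, *Col16a1*, *Col24a1*, *Col6a2* and *Col6a3*.

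**Figure D1:**
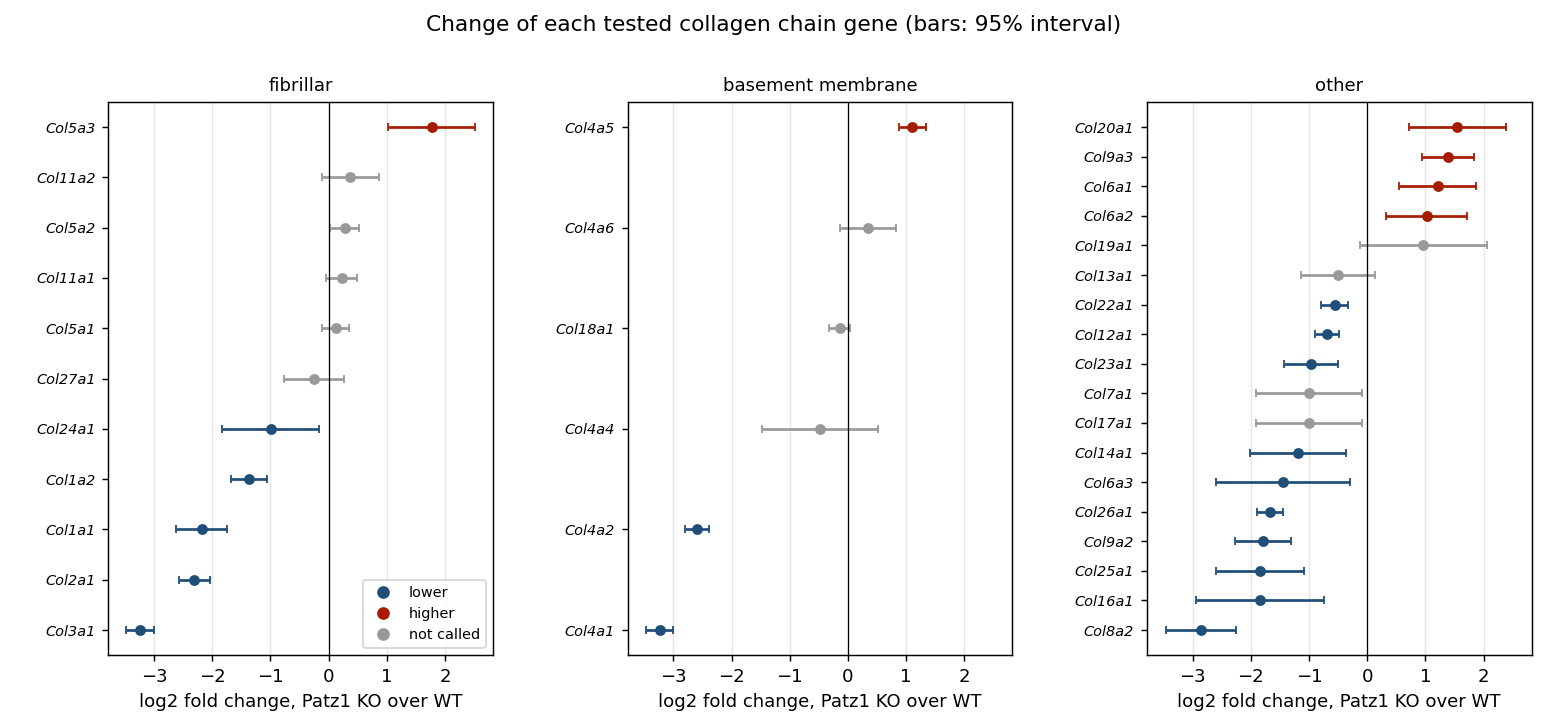
Log2 fold change of the 35 tested collagen chain genes, *Patz1* KO over WT, in 3 panels by collagen group, each point the edgeR estimate from 2 libraries per genotype and each bar its 95% interval. Blue points were called lower (17), red points higher (6) and grey points were not called (12), with *Col3a1* and *Col4a1* farthest to the left at -3.24 and -3.24 and *Col5a3* farthest to the right at 1.77.

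The chains of basement membranes carried most of the collagen RNA. Their main pair, *Col4a1* and *Col4a2*, encodes the alpha1 and alpha2 chains that form the type IV network found in nearly every basement membrane. *Col4a1* had 7110 and 8898 counts in the WT libraries against 1270 and 971 in *Patz1* KO, or 477 and 559 CPM in WT against 52.4 and 57.8 in *Patz1* KO. Both *Patz1* KO libraries were far below both WT libraries, by 9.42-fold, with a log2 fold change of -3.24 ± 0.11 (SE) (edgeR adjusted p = 8.35e-13). For *Col4a2* there were 2951 and 3591 counts in the WT libraries against 861 and 585 in *Patz1* KO, which is 198 and 226 CPM in WT against 35.5 and 34.8 in *Patz1* KO. Here too the groups were far apart, with a log2 fold change of -2.59 ± 0.10 (SE) or 6.02-fold (edgeR adjusted p = 1.54e-12).

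*Col4a1* and *Col4a2* lie head to head on chromosome 8 of GRCm38 (mm10), *Col4a1* at chr8:11198423-11312826 on the minus strand and *Col4a2* at chr8:11312805-11449287 on the plus strand. Their first exons share 22 bases, which is 0.295% of the exon length of *Col4a1* and 0.332% of that of *Col4a2*. Their RefSeq promoter windows (250 bases before to 50 after the start, GRCm38.p6) share 78 bases, from chr8:11312777-11312854. The windows are shown because both genes fell together, with each copy of the G-rich string GGGAGGG, on either strand, in capitals.

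Col4a1, chr8:11312777-11313076, minus strand: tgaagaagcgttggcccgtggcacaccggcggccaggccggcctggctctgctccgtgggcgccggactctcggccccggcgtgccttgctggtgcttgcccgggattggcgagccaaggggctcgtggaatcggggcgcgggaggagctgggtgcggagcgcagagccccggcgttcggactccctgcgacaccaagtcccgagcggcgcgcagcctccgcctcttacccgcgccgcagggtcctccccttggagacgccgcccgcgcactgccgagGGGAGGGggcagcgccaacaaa
Col4a2, chr8:11312555-11312854, plus strand: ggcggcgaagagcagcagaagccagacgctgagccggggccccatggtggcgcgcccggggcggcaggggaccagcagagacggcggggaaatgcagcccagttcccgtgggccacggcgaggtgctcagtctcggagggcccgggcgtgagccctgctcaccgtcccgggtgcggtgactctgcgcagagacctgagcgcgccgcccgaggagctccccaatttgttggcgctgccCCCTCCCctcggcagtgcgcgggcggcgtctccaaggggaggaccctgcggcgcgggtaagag

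The only copy of the string in each window is the same stretch of DNA, inside the 78 shared bases. The string was looked for because the zinc fingers of PATZ1 are known to bind G-rich DNA, and a match in a window is only a match of letters.

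Of the other type IV chains, 1 was called higher and none lower. *Col4a5*, which joins alpha3 and alpha4 or alpha6 chains in the basement membranes of kidney, smooth muscle and skin, had 390 and 357 counts in the WT libraries against 1338 and 827 in *Patz1* KO. It was higher in both *Patz1* KO libraries, by 2.15-fold or 1.11 ± 0.11 (SE) on the log2 scale (edgeR adjusted p = 2.54e-07). *Col4a6*, its head-to-head neighbour on chromosome X with 1308 bases between the genes, had 63 and 73 counts in the WT libraries against 156 and 78 in *Patz1* KO. In CPM both *Patz1* KO libraries were above WT, at 4.23 and 4.59 CPM in WT against 6.43 and 4.65 in *Patz1* KO, but the second only just. The change of 0.35 ± 0.23 was not called (edgeR adjusted p = 0.219), with a 95% interval of -0.13 to 0.82. Without *Patz1* KO replicate 2 it was 0.55 and passed the threshold (edgeR adjusted p = 0.0299). The windows of this second pair do not meet, and only that of *Col4a5* holds the string, in 2 copies.

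Col4a5, chrX:141475169-141475468, plus strand: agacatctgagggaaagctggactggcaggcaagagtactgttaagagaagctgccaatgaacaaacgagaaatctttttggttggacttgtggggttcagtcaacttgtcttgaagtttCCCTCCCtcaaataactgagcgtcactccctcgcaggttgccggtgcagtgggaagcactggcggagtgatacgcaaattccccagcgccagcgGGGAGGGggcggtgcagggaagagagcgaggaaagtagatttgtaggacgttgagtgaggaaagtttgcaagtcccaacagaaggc
Col4a6, chrX:141474027-141474326, minus strand: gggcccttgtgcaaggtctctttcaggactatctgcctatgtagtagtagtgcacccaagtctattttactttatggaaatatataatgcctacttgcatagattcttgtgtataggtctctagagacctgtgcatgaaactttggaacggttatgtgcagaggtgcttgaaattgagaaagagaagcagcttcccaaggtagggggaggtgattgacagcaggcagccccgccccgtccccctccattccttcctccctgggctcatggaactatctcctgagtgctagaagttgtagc

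*Col4a3* and *Col4a4*, whose products join alpha5 in the filter of the kidney, were near the limit of detection. *Col4a4* had 13 and 21 counts in the WT libraries against 26 and 7 in *Patz1* KO, the groups overlapped in CPM, and its change of -0.48 ± 0.47 was not called (edgeR adjusted p = 0.426). *Col4a3* had 8 and 3 counts in the WT libraries against 5 and 1 in *Patz1* KO and was not tested.

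*Col18a1*, a proteoglycan of basement membranes whose C-terminal end is endostatin, had 3824 and 4007 counts in the WT libraries against 5508 and 3936 in *Patz1* KO. Its CPM in the *Patz1* KO libraries was just below that in WT, at 257 and 252 CPM in WT against 227 and 234 in *Patz1* KO. The difference of -0.14 ± 0.09 was not called (edgeR adjusted p = 0.195), and its 95% interval on the log2 scale was -0.32 to 0.04. Its relative *Col15a1* had 8 and 5 counts in the WT libraries against 3 and 1 in *Patz1* KO and was not tested. Of the 8 chains of this group, 6 were tested, 2 were called lower and 1 higher. The 3 called of 6 tested were a share near the 47.4% of all genes tested.

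**Figure D2:**
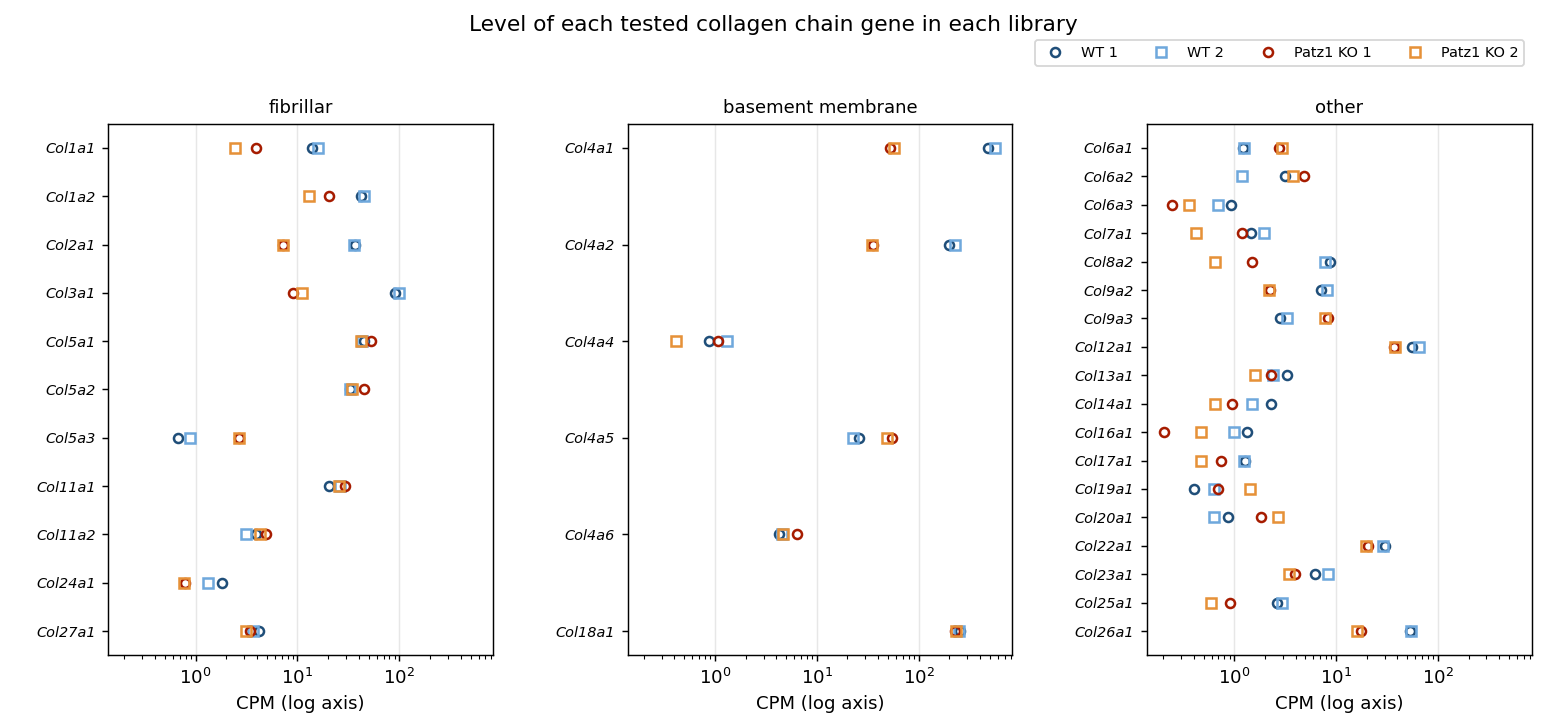
CPM of each tested collagen chain gene in each of the 4 libraries, on a log axis, in 3 panels by collagen group, with WT libraries in blue and *Patz1* KO libraries in red and orange. *Col4a1*, *Col4a2*, *Col3a1* and *Col2a1* show a wide gap between the genotypes, while the 4 points of *Col18a1* lie almost on each other.

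The 4 fibrillar chains of types I to III were all called lower, against 23.4% of all genes tested. Of the 7 chains of types V, XI, XXIV and XXVII 1 was called lower and 1 higher. That called share of 28.6% stood below the 47.4% of all genes tested. *Col3a1*, the chain of the homotrimeric type III collagen of vessels and soft tissue, had 1360 and 1562 counts in the WT libraries against 221 and 186 in *Patz1* KO. Both *Patz1* KO libraries lay far below, and the log2 fold change was -3.24 ± 0.12 (SE), or 9.46-fold (edgeR adjusted p = 1.00e-12). *Col2a1*, the collagen of cartilage and of the notochord sheath, had 545 and 565 counts in the WT libraries against 176 and 122 in *Patz1* KO, with a log2 fold change of -2.31 ± 0.13 (SE) (edgeR adjusted p = 1.49e-10).

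The 2 chains of type I collagen, the main fibril of bone, skin and tendon, were lower as well. *Col1a1* had 208 and 254 counts in the WT libraries against 96 and 41 in *Patz1* KO and fell by 2.18 ± 0.21 (SE) on the log2 scale (edgeR adjusted p = 1.35e-07). *Col1a2* had 629 and 715 counts in the WT libraries against 491 and 219 in *Patz1* KO, which is 42.2 and 44.9 CPM in WT against 20.2 and 13.0 in *Patz1* KO. It fell by 1.37 ± 0.15 (SE) (edgeR adjusted p = 6.37e-07), and in both genes the 2 *Patz1* KO libraries stood apart from each other, replicate 2 being the lower. The 4 chains of types I to III had a median log2 fold change of -2.25.

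Among the chains of types V and XI, which start fibrils and set their width, 1 was called higher and none lower. *Col5a1* had 44.8 and 43.5 CPM in WT against 53.3 and 42.2 in *Patz1* KO, with overlap between the groups, and its change of 0.12 ± 0.11 was not called (edgeR adjusted p = 0.399). Its sign rested on *Patz1* KO replicate 1, without which it was -0.07. *Col5a2* had 33.1 and 32.8 CPM in WT against 44.9 and 34.6 in *Patz1* KO, just above WT in both *Patz1* KO libraries. Its change of 0.28 ± 0.12 lay outside the threshold (edgeR adjusted p = 0.0611), and passed it without *Patz1* KO replicate 2, at 0.45 (edgeR adjusted p = 3.81e-05). *Col5a3*, a rarer type V chain, rose from 10 and 14 to 65 and 45 counts, by 1.77 ± 0.36 (SE) on the log2 scale (edgeR adjusted p = 5.15e-04).

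*Col11a1* had 305 and 419 counts in the WT libraries against 703 and 431 in *Patz1* KO and overlapped between the groups, with a change of 0.23 ± 0.13 that was not called (edgeR adjusted p = 0.159). Leaving out *Patz1* KO replicate 2 gave 0.31, past the threshold (edgeR adjusted p = 0.0146), and the same library also decided *Col5a1* (0.28, adjusted p = 0.0115). *Col11a2* had 3.96 and 3.14 CPM in WT against 4.87 and 4.29 in *Patz1* KO and *Col27a1*, a chain of developing cartilage, 4.16 and 3.65 CPM in WT against 3.38 and 3.16 in *Patz1* KO. Neither was called, with changes of 0.38 ± 0.24 and -0.25 ± 0.24. *Col24a1*, a fibrillar chain known from bone and cornea, had 27 and 21 counts in the WT libraries against 19 and 13 in *Patz1* KO, lower in both *Patz1* KO libraries. Its log2 fold change of -0.995 ± 0.40 (SE) was just past the threshold (edgeR adjusted p = 0.0464), and the call was lost without any 1 of the 4 libraries, where the value lay between -1.20 and -0.76. All 11 fibrillar chains were tested, with 5 called lower and 1 higher. The called share of 54.5% stood against 47.4% of all genes tested. The 7 chains of types V, XI, XXIV and XXVII had a median of 0.23.

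*Col3a1* and *Col5a2* are neighbours on chromosome 1, tail to tail with 24.6 kb between them, *Col3a1* at chr1:45311538-45349706 and *Col5a2* at chr1:45374321-45503282. The one fell to 0.106 of its WT level and the other lay at 1.21 times its own. Exons of *Col3a1* share 141 bases, 1.44% of its exon length, with *Gm47302* on the same strand. Apart from *Col9a3*, no tested chain shared more than 1.54% of its exon length with another annotated gene.

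Among the other types, the FACIT collagens, which bind to the surface of fibrils, went both ways. *Col9a2* and *Col9a3* encode 2 of the 3 chains of type IX collagen, which coats type II fibrils in cartilage, and they moved in opposite directions. *Col9a2* had 107 and 130 counts in the WT libraries against 54 and 37 in *Patz1* KO, with a log2 fold change of -1.79 ± 0.23 (SE) (edgeR adjusted p = 4.23e-06). *Col9a3* had 42 and 53 counts in the WT libraries against 202 and 132 in *Patz1* KO, a rise of 1.39 ± 0.21 (SE) (edgeR adjusted p = 3.44e-05). The third chain, *Col9a1*, had 4 and 8 counts in the WT libraries against 0 and 2 in *Patz1* KO and was not tested. Exons of *Col9a3* share 6.07% of their length with *Tcfl5* on the opposite strand, and the strand setting of the counting is not given in the sources used here.

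*Col12a1* and *Col14a1* bind fibrils of type I collagen. *Col12a1* had 56.0 and 64.8 CPM in WT against 37.3 and 37.7 in *Patz1* KO and fell by 0.69 ± 0.10 (SE) (edgeR adjusted p = 2.25e-05). *Col14a1* had 34 and 24 counts in the WT libraries against 23 and 11 in *Patz1* KO, with a log2 fold change of -1.19 ± 0.39 (SE) (edgeR adjusted p = 0.0181) whose call was lost without WT replicate 1, at -0.88. *Col22a1*, found at the junction of muscle and tendon, had 30.3 and 29.2 CPM in WT against 20.7 and 19.7 in *Patz1* KO, the smallest of the called falls, with a log2 fold change of -0.56 ± 0.11 (SE) (edgeR adjusted p = 5.07e-04). *Col16a1* had 20 and 16 counts in the WT libraries against 5 and 8 in *Patz1* KO and a log2 fold change of -1.85 ± 0.52 (SE) (edgeR adjusted p = 0.00734). That call was lost without WT replicate 1 (-1.63) or *Patz1* KO replicate 1 (-1.28), and without *Patz1* KO replicate 2 the value was -2.46. *Col20a1* rose from 13 and 10 to 44 and 45 counts, by 1.55 ± 0.40 (SE) (edgeR adjusted p = 0.00356). It lies 364 kb from *Col9a3*, on the same strand of chromosome 2, and both were higher. *Col19a1* had 6 and 10 counts in the WT libraries against 17 and 24 in *Patz1* KO, and its change of 0.97 ± 0.52 was not called except without *Patz1* KO replicate 1, at 1.45. In all 8 of the 9 FACIT chains were tested, 5 being lower and 2 higher, a called share of 87.5% against 47.4% of all genes tested. *Col16a1*, 1 of the 5, reached 10 counts only in the WT libraries. Over the whole group of other types 18 of 25 chains were tested, with 10 lower and 4 higher, a called share of 77.8%.

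Type VI collagen, which forms beaded microfilaments around cells, is built from an alpha1, an alpha2 and a further chain. *Col6a1* had 18 and 20 counts in the WT libraries against 67 and 50 in *Patz1* KO and rose by 1.21 ± 0.32 (SE) (edgeR adjusted p = 0.00417). *Col6a2*, 85.2 kb from it on the same strand of chromosome 10, had 47 and 19 counts in the WT libraries against 118 and 64 in *Patz1* KO and rose by 1.02 ± 0.33 (SE) (edgeR adjusted p = 0.0165). The WT libraries of *Col6a2* stood apart, and the rise was 1.87 without WT replicate 1 and 0.48, no longer called, without WT replicate 2. *Col6a3*, the usual partner of both, had 14 and 11 counts in the WT libraries against 6 and 6 in *Patz1* KO, at the edge of the filter, and a log2 fold change of -1.45 ± 0.55 (SE) (edgeR adjusted p = 0.0382). Its call was lost without WT replicate 1 (-1.22), WT replicate 2 (-1.65) or *Patz1* KO replicate 1 (-1.17). The 3 further chains *Col6a4*, *Col6a5* and *Col6a6* had at most 11 counts in any library and were not tested.

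*Col8a2*, a chain of the hexagonal lattice under the corneal endothelium, had 130 and 123 counts in the WT libraries against 36 and 11 in *Patz1* KO. Both *Patz1* KO libraries were low but unlike each other, and the log2 fold change was -2.86 ± 0.29 (SE) (edgeR adjusted p = 3.07e-07), with -3.63 when *Patz1* KO replicate 1 was left out and -2.46 when replicate 2 was. Its partner *Col8a1* had 7 and 17 counts in the WT libraries against 2 and 4 in *Patz1* KO, just outside the filter, and the growth plate collagen *Col10a1* had 6 and 5 counts in the WT libraries against 4 and 7 in *Patz1* KO. *Col7a1*, the anchoring fibril of skin, had 22 and 31 counts in the WT libraries against 29 and 7 in *Patz1* KO. Its change of -0.99 ± 0.43 was not called (edgeR adjusted p = 0.0669), but was without *Patz1* KO replicate 1, at -2.02.

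The transmembrane collagens include chains that neurons and muscle make. *Col25a1*, which is needed for motor axons to grow into muscle, had 39 and 47 counts in the WT libraries against 22 and 10 in *Patz1* KO, with a log2 fold change of -1.84 ± 0.36 (SE) (edgeR adjusted p = 3.72e-04). *Col23a1* had 6.24 and 8.30 CPM in WT against 3.96 and 3.45 in *Patz1* KO, with a log2 fold change of -0.96 ± 0.22 (SE) (edgeR adjusted p = 0.00144) that was no longer called without WT replicate 2, at -0.74. *Col13a1*, a collagen of the neuromuscular junction, had 3.29 and 2.39 CPM in WT against 2.31 and 1.61 in *Patz1* KO, and *Col17a1*, which anchors epithelial cells to their basement membrane, had 1.27 and 1.26 CPM in WT against 0.742 and 0.476 in *Patz1* KO. In both genes the *Patz1* KO libraries lay below WT, with changes of -0.50 ± 0.30 and -1.003 ± 0.43 that were not called. For *Col17a1* the threshold was passed without *Patz1* KO replicate 1, at -1.39. *Col26a1*, a short collagen first described in testis and ovary, was among the more abundant chains, with 793 and 857 counts in the WT libraries against 426 and 270 in *Patz1* KO. It fell by 1.67 ± 0.11 (SE) on the log2 scale or 3.17-fold (edgeR adjusted p = 8.68e-10). *Col28a1*, made by glia of peripheral nerve, had 0 and 1 counts in the WT libraries against 3 and 5 in *Patz1* KO and was not tested.

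The chains just inside the filter were *Col6a3* and *Col16a1*, whose counts in the 4 libraries are given above, and those just outside were *Col8a1* and *Col6a6*, the latter with 6 and 11 counts in the WT libraries against 4 and 3 in *Patz1* KO. For *Col6a4* there were 7 and 10 counts in the WT libraries against 5 and 1 in *Patz1* KO and for *Col6a5* 2 and 0 counts in the WT libraries against 0 and 0 in *Patz1* KO.

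Summed over all 44 genes, collagen RNA was lower in both *Patz1* KO libraries than in either WT library. The sum was 1443 and 1566 CPM in WT and 667 and 633 CPM in *Patz1* KO, 2.32-fold lower in the mean of *Patz1* KO. Collagen took 0.146% and 0.158% of all counts in WT against 0.0677% and 0.0611% in *Patz1* KO. Basement membrane chains summed to 964 and 1066 CPM in WT and 378 and 382 in *Patz1* KO, fibrillar chains to 293 and 306 against 180 and 147, and the others to 186 and 194 against 109 and 104. Most of the difference was that of *Col4a1* and *Col4a2*, and without them the sum was 767 and 781 CPM in WT and 579 and 540 in *Patz1* KO. The fibrillar chains of types I to III gave 184 and 195 CPM against 40.6 and 33.8, while those of types V, XI, XXIV and XXVII gave 109 and 112 against 139 and 113. With 2 libraries against 2 an exact two-sided permutation test cannot give a p below 0.33, which each of these sums reached, so they stand as values. These are bulk cultures, in which fewer cells of a type and less RNA per cell cannot be told apart.

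The order of the chains changed with the sums. Levels between genes were compared as CPM per kilobase of exon, over the exons of the GENCODE M21 annotation. By this per-length level *Col4a1* ranked 1 of 44 in WT and 3 in *Patz1* KO, and *Col18a1* went from 2 to 1. *Col4a5* went from 9 to 2 and *Col3a1* from 4 to 13. *Col4a1* and *Col4a2* together made up 49.9% and 53.5% of the per-length collagen level in the WT libraries and 14.4% and 15.8% in *Patz1* KO. *Col18a1*, which did not itself pass the test, made up 19.4% and 17.6% in WT and 37.6% and 40.4% in *Patz1* KO. These are shares of a sum that was lower in *Patz1* KO, so a chain at an even level takes a larger share.

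**Figure D3:**
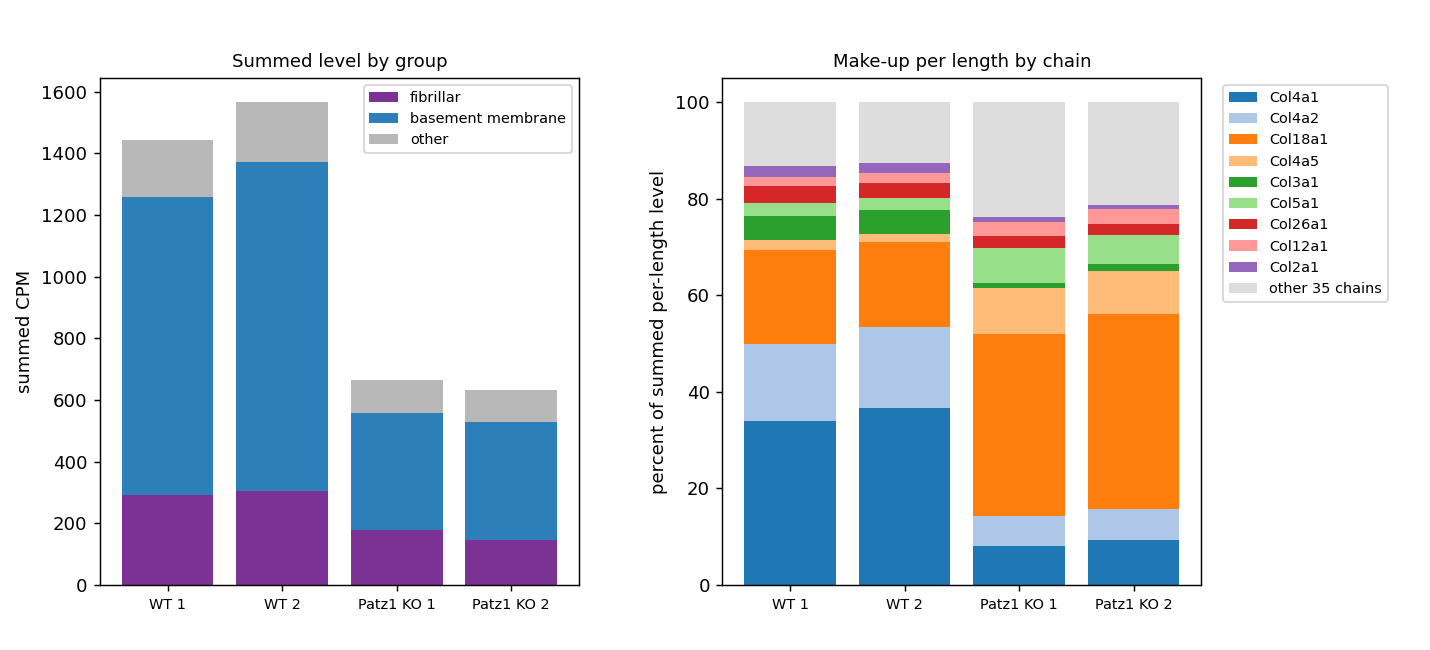
Left, summed CPM of the fibrillar, basement membrane and other collagen chains stacked in each library, 1443 and 1566 CPM in all in WT and 667 and 633 in *Patz1* KO. Right, percent of the summed per-length collagen level taken by 9 chains and by the remaining 35 in each library, where *Col4a1* and *Col4a2* shrink and *Col18a1* and *Col4a5* widen in *Patz1* KO.

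The ratio between chains that join in one trimer did not overlap between the genotypes in 4 of 6 pairs. For the levels of single genes the share without overlap was 73.9% of all genes tested. No such share was computed for ratios between genes, so the 4 of 6 has no background beside it. The per-length ratio of *Col4a1* to *Col4a2*, whose products join as 2 alpha1 chains to 1 alpha2 chain, was 2.14 and 2.20 in WT against 1.31 and 1.47 in *Patz1* KO. That of *Col1a1* to *Col1a2*, which join in the same proportion, was 0.626 and 0.673 in WT against 0.370 and 0.354 in *Patz1* KO. In both pairs the alpha1 chain lost more, and the groups did not overlap. *Col4a5* to *Col4a6* went the other way, from 7.35 and 5.80 to 10.2 and 12.6. *Col5a1* to *Col5a2* was 1.53 and 1.498 in WT against 1.34 and 1.38 in *Patz1* KO, a small but separate shift. For *Col6a1* to *Col6a2* the ratios were 0.728 and 2.00 in WT against 1.08 and 1.49 in *Patz1* KO, and for *Col11a1* to *Col11a2* 2.79 and 4.52 against 3.21 and 3.23, with overlap in both. The smallest exact p is again 0.33, and the ratios depend on the exon lengths taken from the annotation.

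**Figure D4:**
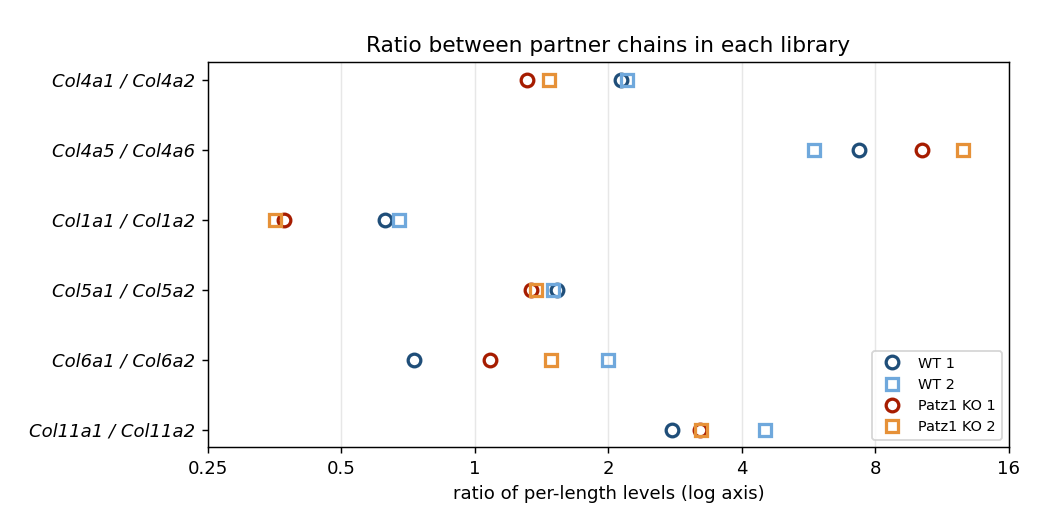
Ratio of the per-length levels of 6 pairs of chains that share a trimer, in each of the 4 libraries on a log axis, with WT in blue and *Patz1* KO in red and orange. The ratios of *Col4a1* to *Col4a2* and *Col1a1* to *Col1a2* were lower in both *Patz1* KO libraries, that of *Col4a5* to *Col4a6* was higher, and those of types VI and XI overlapped.

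The genes that make, bind or break down collagen were followed in 64 genes of 5 lists, of which 57 were tested, with 12 higher and 23 lower. Among all genes tested 24.0% were called higher and 23.4% lower, so the 12 higher are no larger a share than that over all genes. Folding and hydroxylation, the work of the endoplasmic reticulum, had 7 of 19 tested genes higher and 6 lower. *P4ha1*, a prolyl 4-hydroxylase subunit that stabilizes the helix, had 579 and 636 counts in the WT libraries against 2209 and 1823 in *Patz1* KO and rose by 1.34 ± 0.10 (SE) (edgeR adjusted p = 1.16e-08). Its relative *P4ha2* rose by 0.60 and *P4ha3* fell by 1.35. *Plod2*, which hydroxylates lysines for crosslinks, rose by 0.35, and the collagen galactosyltransferase *Colgalt2* (*Glt25d2* in the files) by 1.12. *Serpinh1*, the collagen chaperone HSP47, had 4822 and 5171 counts in the WT libraries against 3449 and 2538 in *Patz1* KO and fell by 1.15 ± 0.09 (SE) (edgeR adjusted p = 1.15e-08). The steepest fall was that of *P3h2* (*Leprel1* in the files), a prolyl 3-hydroxylase that acts on type IV collagen, with 86 and 114 counts in the WT libraries against 7 and 6 in *Patz1* KO and a log2 fold change of -4.32 ± 0.35 (SE) (edgeR adjusted p = 2.21e-08). *Crtap*, a helper of prolyl 3-hydroxylation, fell by 1.89.

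Of 7 tested secretion genes 2 were lower and none higher, a count near the 23.4% of all genes called lower. One of them was *Sec24d*, a coat protein of the vesicles that carry procollagen, which fell by 1.27. Processing and crosslinking had 8 of 16 lower and 2 higher, against 23.4% and 24.0% of all genes tested. Lower with a change of at least 1 on the log2 scale were *Adamts3* (-2.07), which cuts the end off procollagen, *Pcolce* (-1.84), which speeds such cleavage, the crosslinking enzymes *Loxl1* (-1.95) and *Tgm2* (-2.65), and the small proteoglycans *Lum* (-1.72) and *Dcn* (-2.32). Of these *Lum* lay at the edge of the filter, with 10 and 13 counts in the WT libraries against 3 and 6 in *Patz1* KO and an SE of 0.62. *Sparc*, a collagen-binding protein of basement membranes, had 3074 and 3523 counts in the WT libraries against 2283 and 1574 in *Patz1* KO and fell by 1.19 ± 0.09 (SE) (edgeR adjusted p = 6.52e-09). *Loxl3*, another lysyl oxidase, rose from 55 and 64 to 500 and 329 counts, by 2.38 ± 0.16 (SE) (edgeR adjusted p = 2.58e-09). *Lox* itself had 6 and 13 counts in the WT libraries against 9 and 7 in *Patz1* KO and was not tested.

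Collagen receptors were lower in 4 of 8 tested and higher in 1, against 23.4% and 24.0% of all genes tested. Lower were the integrin chains *Itga2* (-3.56) and *Itga1* (-1.23), the receptor kinase *Ddr2* (-3.05) and *Mrc2* (-2.39), which takes up collagen. *Ddr1* rose by 0.32, and *Itgb1*, the shared beta chain of the collagen integrins, had 418 and 448 CPM in WT against 386 and 410.3 in *Patz1* KO and was not called, with a change of -0.12 ± 0.10. In breakdown 3 of 7 were lower and 2 higher, against 23.4% and 24.0% of all genes tested. The collagenolytic *Mmp2* and *Mmp14* fell (-2.50 and -1.88), as did the inhibitor *Timp1* (-2.91), while *Timp3*, an inhibitor held in the matrix, rose from 482 and 563 to 1971 and 1290 counts, by 1.22. All values in these 2 paragraphs are log2 fold changes of *Patz1* KO over WT, and each gene said to rise or fall passed the edgeR test. Among the genes that fell, *P3h2*, *Loxl1*, *Lum* and *Itga2* reached 10 counts only in the WT libraries.

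**Figure D5:**
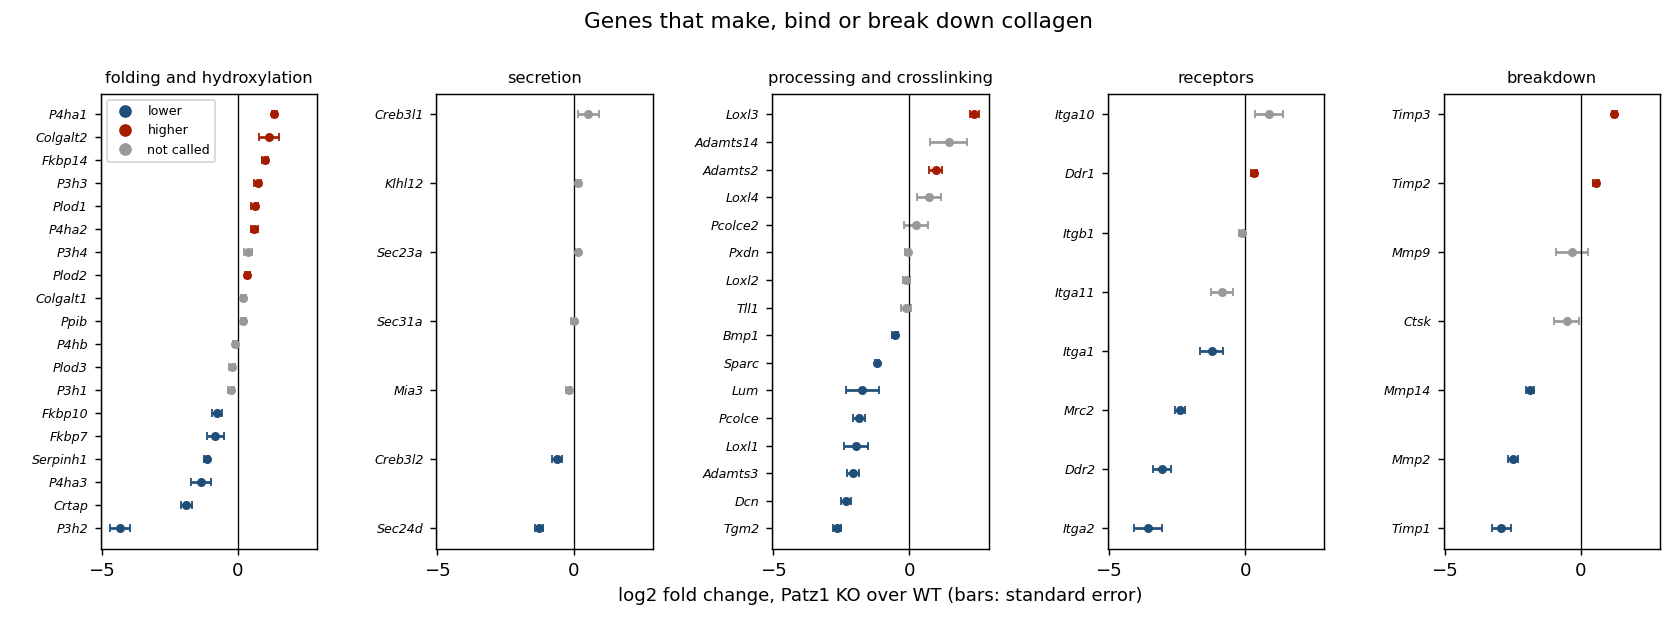
Log2 fold change, *Patz1* KO over WT, of the 57 tested genes that make, bind or break down collagen, in 5 panels by role, with bars of 1 standard error from the edgeR fit on 2 libraries per genotype. Folding genes lie on both sides of 0, from -4.32 for *P3h2* to 1.34 for *P4ha1*, with a median of 0.19, while the medians of processing genes and receptors are -0.33 and -1.04.

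Markers of several other cell types that the cultures could hold were lower alongside the collagen chains. The counts of called markers in this and the next paragraph stand against 23.4% of all genes tested called lower and 24.0% called higher. Mesenchyme markers summed to 47.5 to 62.0 CPM in WT and 4.0 to 4.94 in *Patz1* KO, with 5 of 5 tested lower, the most counted being *Pdgfra* (-3.96) and *Foxc1* (-3.34). Extraembryonic endoderm, whose parietal cells are known for type IV collagen, summed to 46.1 to 53.1 CPM against 8.29 to 8.40, with 7 of 9 lower, among them *Dab2* (-3.34) and *Cubn* (-2.92). *Sox7* (-0.11) and *Afp* (-0.035) of the same list were not called. Floor plate and notochord markers gave 76.7 to 81.7 CPM against 11.6 to 12.6, with 3 of 3 tested lower, *Shh* (-2.99) and *Foxa2* (-2.35) being the most counted. The notochord genes *T* (0 and 0 counts in WT against 1 and 0 in *Patz1* KO) and *Noto* (0 and 1 against 0 and 0) were not tested. Epithelial markers gave 43.4 to 46.8 CPM against 3.59 to 5.36, with 3 of 3 tested lower (*Krt8* -3.43, *Krt18* -3.47). *Krt14* (0 and 0 counts in WT against 1 and 0 in *Patz1* KO) and *Krt5* (0 and 2 against 0 and 0) were not tested.

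Markers of endothelium gave 11.4 to 13.3 CPM in WT and 4.05 to 6.35 in *Patz1* KO, with 4 of 7 lower (*Kdr* -1.03, *Cdh5* -2.45), and those of mural cells 26.3 to 26.98 against 10.3 to 12.5, with 4 of 6 lower (*Pdgfrb* -0.82, *Acta2* -2.48). The remaining lists had at most 1 lower gene each. Cartilage and sclerotome markers summed to 51.2 to 54.0 CPM in WT and 70.3 to 75.6 in *Patz1* KO, nearly all of it *Sox9* (0.53), with *Pax9* lower (-1.70). The cartilage gene *Acan* had 4 and 4 counts in the WT libraries against 11 and 6 in *Patz1* KO, and *Matn1* had 0 and 0 counts in the WT libraries against 1 and 0 in *Patz1* KO. *Foxd3*, a neural crest gene, had 10 and 9 counts in the WT libraries against 82 and 63 in *Patz1* KO and was higher (2.51). MN markers gave 599 to 643 CPM against 939 to 1031, with *Slc18a3* (0.73) and *Lhx3* (0.63) most counted, and general neuron markers 3690 to 3932 against 5477 to 5808, with 3 of 6 higher and 1 lower, *Tubb3* (0.53) and *Dcx* (1.01) most counted. Pluripotency markers gave 5.50 to 6.79 CPM against 4.41 to 5.18, with none of 2 called (*Nanog* -0.70, *Zfp42* 0.46). Among the markers called lower, *Foxc2*, *Thbd*, *Ttr*, *Tie1* and *Myh11* reached 10 counts only in the WT libraries. The counts of each list describe only the markers that passed the filter. The part of all these cell types in the collagen levels was not tested.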

How the data were processed

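Total RNA of 4 MN cultures (2 WT, 2 *Patz1* KO) was made into ribosome-depleted stranded libraries. The deposited values are raw counts of reads per gene symbol, which the authors made after mapping to mm10. The submitters' processing notes name TopHat2 2.1.1, Bowtie2 2.3.1, featureCounts 1.6.2 and DESeq2. The counting annotation and strand setting are not given in the sources used here. Sample titles name ESCs, while source and cell type name MNs, and the latter were used.

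The whole table was fitted with edgeR 4.0.16 (limma 3.58.1, R 4.3.3) by the quasi-likelihood test on TMM-scaled counts, 2-sided, keeping genes with at least 10 counts in at least 2 libraries, without a replicate block. P-values were adjusted by Benjamini-Hochberg over 14394 genes and called below 0.05. Each SE was derived from the log2 fold change and the F statistic. With 2 libraries per group the spread leans on that of all genes, and chains with few counts are the least precise. Replicates differed by more than sampling noise. The fit was tested on simulated data.

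All members were named, those called or with a mean of at least 100 counts with values per library. Of the pathway genes, those called with a change of at least 1 on the log2 scale were named, plus *P4ha1*, *P4ha2*, *Plod2*, *Serpinh1*, *Lox*, *Itgb1*, *Ddr1* and *Sparc*, and of each marker list the 2 most counted genes. The result of 1 marker is not reported here, nor is the sum of its list. *Acan*, *Matn1*, *T*, *Noto*, *Krt5* and *Krt14* were named after their values were seen. The same holds for *Sox7*, *Afp*, *Foxc2*, *Thbd*, *Ttr*, *Tie1* and *Myh11*. Members and lists were chosen with earlier results of these data known. Positions and exon lengths are those of GENCODE M21 on GRCm38. RefSeq windows matched 35 of the 44 genes. Alternatives were other scalings and filters, the stricter threshold of 0.01, robust estimation, a replicate block, DESeq2 1.42.0 and leaving out each library.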

Additional observations from a re-analysis of the deposited data

How the results depend on the processing

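With another scaling (DESeq2 size factors, library size alone), with filterByExpr or with robust estimation the same 23 collagen chains were called. DESeq2's Wald test, which called 5311 genes in all against 6822 by edgeR, kept 18 of them, 13 lower and 5 higher, and lost *Col14a1*, *Col16a1*, *Col24a1*, *Col6a2* and *Col6a3*. With no filter on low counts 24 were called, *Col24a1* and *Col6a3* being lost and *Col5a2*, *Col7a1* and *Col8a1* gained, and with at least 10 counts in every library 21 of the 29 then tested. An adjusted p below 0.01 left 14 lower and 5 higher. Leaving out each library in turn, with the lone library of that genotype taken to vary like the other group, gave 13 to 16 lower and 5 to 10 higher chains. The calls over all genes moved too, to 4879 and 4570 without WT replicate 1 and 2 and to 7177 and 7782 without *Patz1* KO replicate 1 and 2. The 10 higher chains came without *Patz1* KO replicate 2, which added *Col11a1*, *Col4a6*, *Col5a1* and *Col5a2*, and the cause was not tested. The log2 fold change of *Col5a1* changed sign to -0.065 without *Patz1* KO replicate 1, against 0.28 without replicate 2, and no other chain changed sign under these alternatives. Pairing same-numbered libraries in a replicate block called 25 chains, 18 lower and 7 higher, adding *Col5a2* and *Col7a1*, and 7321 genes in all. The numbers do not show a shared origin, as the deviations of same-numbered libraries correlated at 0.028 over genes. Chains under about 20 counts per library, such as *Col6a3* and *Col16a1*, are limited by depth.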

Other observations

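Promoter windows were on hand for 35 of the 44 collagen chain genes, in 38 windows, and not for *Col1a1*, *Col2a1*, *Col4a3*, *Col5a2*, *Col9a3*, *Col12a1*, *Col14a1*, *Col22a1* and *Col26a1*. The string GGGAGGG, searched on both strands with overlapping copies counted, was in 19 of the 38 (50%), in 29.4% of the 13430 windows of all genes tested and in 22.0% of all 32851 windows of the table. By call it was in 7 of 11 windows of chains lower in *Patz1* KO, in 4 of 6 of higher chains, in 6 of 12 of chains not called and in 2 of 9 of chains not tested. These windows are not all separate DNA. The copy shared by *Col4a1* and *Col4a2* counts for both windows, and the windows of *Col6a2*, both with the string, overlap. The median GC content was 59.8% for the collagen windows and 60.7% for the windows of genes tested. *Col6a1*, which was higher, held 6 copies, *Col1a2*, which was lower, 4, and *Col3a1*, which fell about as far as *Col4a1*, none.

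Other neighbours among the chains gave few counts. *Col4a4* and *Col4a3*, head to head 71 bases apart, held at most 26 and 8 counts in any library, and *Col9a1* and *Col19a1*, tail to tail 9.21 kb apart, at most 8 and 24.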
